A study of Mus musculus with 53 samples.

Results

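This section describes 9 genes of neutrophil recruitment in mouse intestine: the chemokines Cxcl1, Cxcl2, Cxcl3 and Cxcl5, the growth factor gene Csf3, the receptor genes Cxcr2 and Csf3r, and the calcium-binding protein genes S100a8 and S100a9. They were chosen by name, with earlier results of these data known. All 9 have a row among the 55421 genes of the deposited raw count table. RNA-seq of whole tissue was carried out on 53 libraries in 11 groups, 7 from the proximal colon and 4 from the small intestine, and each mutant group has a WT group of its own tissue, matched by labelled day except for the tumours, whose WT groups have no day given. The question put to these genes was how far they differed from WT in each model, and whether the ligands and the neutrophil transcripts rose and fell together from library to library.

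The 4 chemokines are secreted proteins that bind the receptor encoded by Cxcr2 on neutrophils and draw these cells out of the blood into tissue. Csf3 encodes G-CSF, which acts through the receptor encoded by Csf3r to drive the production and release of neutrophils from bone marrow. S100a8 and S100a9 encode the paired subunits of calprotectin, an abundant cytosolic protein of neutrophils and a stool marker of gut inflammation.

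All mice carried the VillinCreER transgene, a Cre recombinase that tamoxifen switches on in intestinal epithelial cells, so that neutrophils and other non-epithelial cells of the same tissue keep the unrecombined alleles. WT mice carried VilCreER+ alone. BA mice were VilCreER+ BrafV600E/+ Alk5fl/fl and A mice were VilCreER+ Alk5fl/fl, where Alk5 is the TGFβ-receptor gene Tgfbr1. From the proximal colon there were primary BA tumours taken at endpoint (n = 4) with WT proximal colon (n = 3, no day given). Tissue from day 30 post induction came from BA mice (n = 5), BA mice given antibiotics in drinking water (n = 5), A mice given sulindac (n = 4), A mice (n = 4) and WT mice (n = 4). The antibiotics were ampicillin (1 g/L), neomycin trisulphate (1 g/L), vancomycin (500 mg/L) and metronidazole (1 g/L), started on the day after tamoxifen. Sulindac, an anti-inflammatory drug that at high dose injures the epithelium of the proximal colon, was given at 0.4 g/L for 14 days before a return to plain water. From the small intestine there were VilCreER+ APCfl/fl tissue at day 4 post induction (n = 10) with WT tissue of that day (n = 6), and primary tumours of VilCreER+ Apcfl/+ mice (n = 5) with WT small intestine (n = 3, no day given). The Apc fl/+ tumours and their WT are labelled as an inbred background and the other groups as a mixed C57BL/6J background. The age and sex of single animals are not in the labels.

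Between 10005066 and 32824795 reads per library were counted on genes in 52 libraries, and 516985 in Apc fl/fl replicate 1. A count of 3 corresponded to 0.0914 to 0.300 CPM (a gene's reads scaled to a fixed library total of 1e+06) in those 52 libraries and to 5.80 CPM in the shallow one, a floor that covers counting error only. Epithelial marker genes summed to between 6792 and 25476 CPM in every library. Whole-gene counts of Tgfbr1 did not show the deletion, at 33.4 to 63.5 CPM in A, 38.1 to 54.2 in BA and 35.2 to 68.2 in WT tissue at day 30. Gm13394, a processed pseudogene, was at 1.02 to 1.31 CPM in WT proximal colon and 3.83 to 60.6 in BA tumours, and the Y-linked gene Ddx3y was at 0 to 0.185 and 0.153 to 80.2 in the same groups. Their part in the results was not tested.

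The 4 chemokine genes lie on the forward strand of chromosome 5 (GRCm38), with Cxcl5 at 90759360 to 90761624, Cxcl3 at 90786103 to 90789600, Cxcl1 at 90891241 to 90893115 and Cxcl2 at 90903871 to 90905938. Csf3 is on chromosome 11 (98701263 to 98703629), Cxcr2 on chromosome 1 (74153989 to 74161246), Csf3r on chromosome 4 (126024550 to 126044440), and S100a8 and S100a9 are neighbours on chromosome 3 (90668978 to 90670035 and 90692632 to 90695721) on opposite strands. Cxcl2 and Cxcl3 share sequence, with 6.85% and 5.02% of their 36-base words found in other genes, most often in each other. A small part of their reads could thus be split with other genes. For Cxcr2 this share was 10.3% and for Csf3r 19.2%, with genes outside the set, and it was under 1% for the other 5 members.

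Because Cxcl1, Cxcl2 and Cxcl3 moved together in the tumours, the stretches ahead of their RefSeq start sites are shown, with the match to the consensus of NF-kB, an inflammatory transcription factor, in capitals. They run 5′ to 3′ on the forward strand of GRCm38.p6 and end just before the first base of the gene in GENCODE or RefSeq, whichever comes first, at chr5:90890995-90891240 for Cxcl1, chr5:90903649-90903870 for Cxcl2 and chr5:90785851-90786100 for Cxcl3.
Cxcl1: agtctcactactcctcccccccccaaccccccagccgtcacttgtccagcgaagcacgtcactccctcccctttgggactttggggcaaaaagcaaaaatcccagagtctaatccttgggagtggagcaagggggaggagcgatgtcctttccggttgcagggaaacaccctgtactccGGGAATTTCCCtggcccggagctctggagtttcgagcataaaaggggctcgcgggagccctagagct
Cxcl2: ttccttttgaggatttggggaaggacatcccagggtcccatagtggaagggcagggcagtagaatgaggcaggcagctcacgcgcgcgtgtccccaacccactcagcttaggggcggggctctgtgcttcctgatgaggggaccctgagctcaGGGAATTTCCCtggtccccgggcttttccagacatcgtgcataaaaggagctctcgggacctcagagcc
Cxcl3: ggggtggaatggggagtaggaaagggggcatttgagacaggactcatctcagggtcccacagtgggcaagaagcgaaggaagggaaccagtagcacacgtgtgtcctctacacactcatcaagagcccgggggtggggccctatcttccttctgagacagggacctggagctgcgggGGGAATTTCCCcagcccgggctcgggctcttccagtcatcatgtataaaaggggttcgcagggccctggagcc
The capitals are the same 11 letters in all 3 genes and hold 2 overlapping matches of the 10-base consensus, the first starting at base -71 of Cxcl1, -97 of Cxcl2 and -73 of Cxcl3. Both strands were searched in the 250 bases before each RefSeq start. Of 32851 promoters searched in this way, 7.25% held an NF-kB match. RefSeq promoters were matched for 7 of the 9 members, Cxcl5 and Csf3 being the exceptions. Among the other 4 members only Csf3r held an NF-kB match (at base -129), and S100a9 held a C/EBP match (TTGCNNAA, in 9.56% of promoters) at base -236. No AP-1 match (TGANTCA, in 6.75% of promoters) was found in the 7 promoters. A match is a string of letters and not evidence of binding.

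In endpoint BA tumours the neutrophil chemokines were far above WT proximal colon, where most of them were close to the floor. Cxcl1 was at 1.88, 21.3, 2.79 and 5.73 CPM in the BA tumours and 0.309, 0.218 and 0.185 in WT. The groups did not overlap, and BA tumour 2 was the highest. The log2 fold change of Cxcl1 was 5.23 (standard error, SE, 1.12; adjusted p = 0.0175, edgeR quasi-likelihood test). In whole tissue, more cells of a type and more RNA per cell cannot be told apart.

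Cxcl2 was at 2.09, 18.0, 3.18 and 5.40 CPM in the BA tumours and 0.0344, 0 and 0.139 in WT, where the 3 libraries held 4 reads in all. Its log2 fold change of 7.01 (SE 1.27, adjusted p = 0.00955) was the largest among the 8 members tested. Cxcl3 was at 0.611, 3.83, 0.891 and 2.36 CPM against 0.0344, 0.163 and 0, which gave 4.99 on the log2 scale (SE 1.13, adjusted p = 0.0215). Each tumour was above each WT library for both genes, and tumours 2 and 4 were the upper pair.

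Cxcl5, a ligand made largely by epithelial cells, was at 3.66, 51.8, 11.2 and 25.9 CPM in the BA tumours and 0.0344, 0.327 and 0.649 in WT. It rose by 6.33 on the log2 scale (SE 1.24, adjusted p = 0.0126), again with no overlap and with tumours 2 and 4 on top. Csf3 was at 0.560, 19.4, 0.223 and 0.325 CPM in the BA tumours, that is 11, 233, 4 and 8 reads, against 0.0687, 0.0545 and 0.0927 CPM in WT. Tumour 2 alone was high, and the other 3 tumours were above WT by a few reads. Csf3 did not pass the filter on low counts, and without that filter its log2 fold change was 6.24 (SE 1.20, adjusted p = 4.5e-04), while DESeq2 gave 6.46 with no adjusted p. Without WT proximal colon 1, 2 or 3 Csf3 passed the filter and was not called, with adjusted p of 0.253, 0.167 and 0.207.

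**Figure D1:**
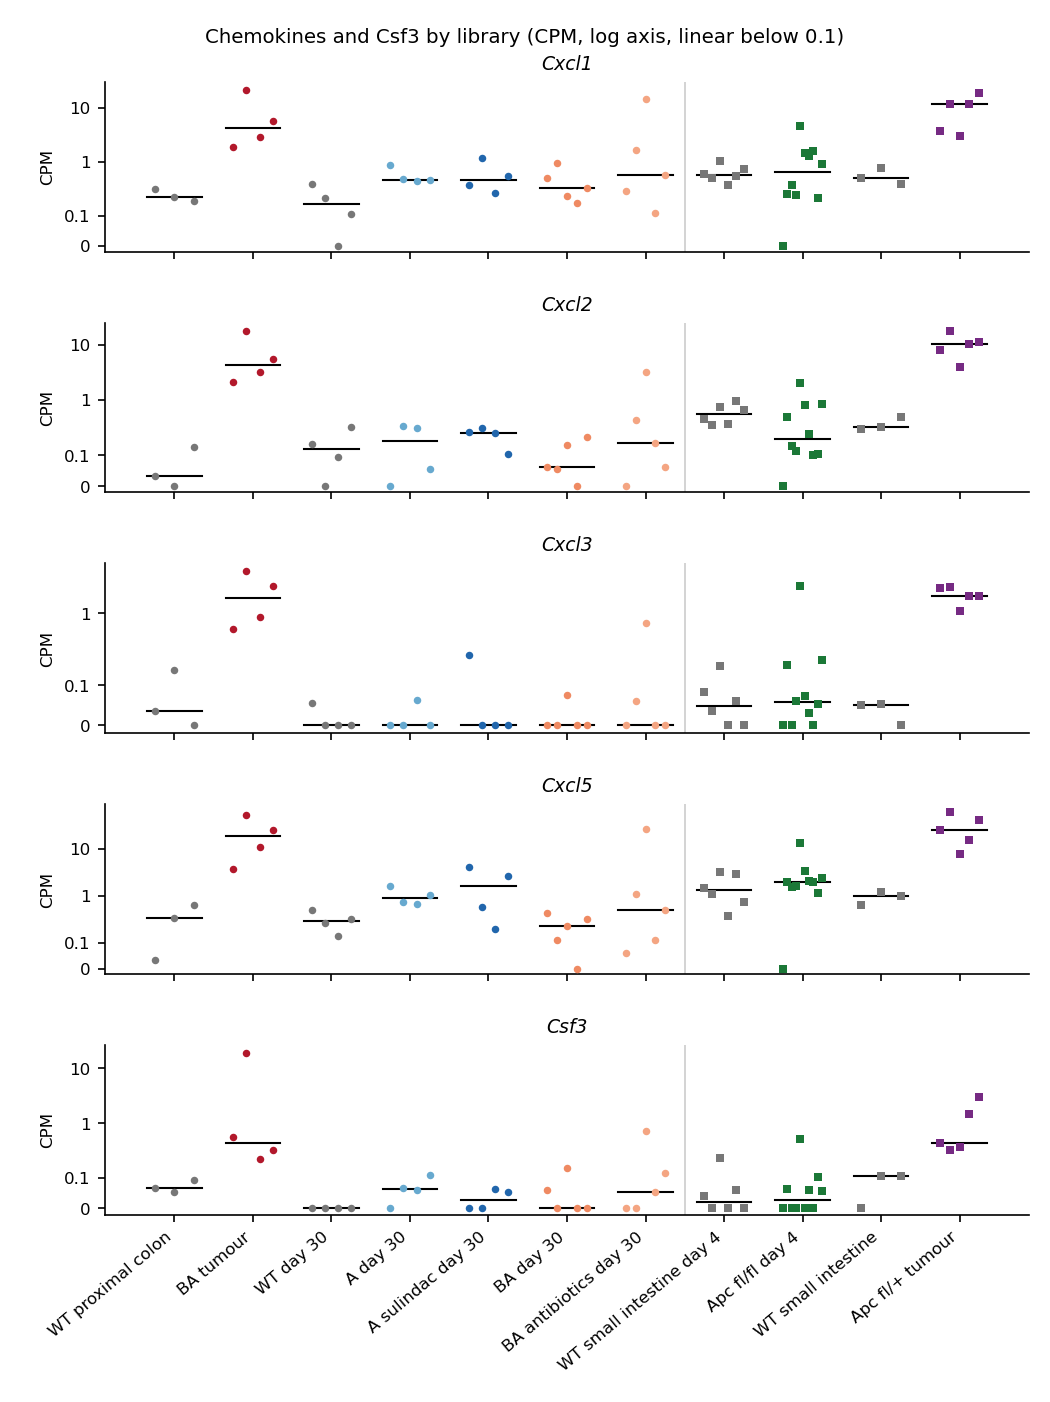
Expression of Cxcl1, Cxcl2, Cxcl3, Cxcl5 and Csf3 in each of the 53 libraries, by group (CPM on an axis that is linear below 0.1 and logarithmic above it). Points are libraries (circles, proximal colon; squares, small intestine), the black line is the group median, and the grey line divides the tissues. Both tumour groups have the highest medians for all 5 genes, and 1 library each of the BA antibiotics group (Cxcl5 at 27.2) and the Apc fl/fl group (Cxcl5 at 13.3) stand above their groups.

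Both receptor genes were also higher in BA tumours than in WT, though not in the tumour-by-tumour order of the ligands. Cxcr2 was at 1.02, 0.665, 2.23 and 2.40 CPM in the BA tumours and 0.103, 0 and 0 in WT, or 127 reads against 3, which is a ratio of 39.4 per read counted (95% exact interval 13.2 to 193, counting error only). It rose by 5.10 on the log2 scale (SE 0.90, adjusted p = 0.0088). Tumour 2, the highest for the ligands Cxcl1, Cxcl2, Cxcl3 and Cxcl5, was the lowest for Cxcr2. Csf3r was at 10.9, 10.6, 8.19 and 10.6 CPM against 0.996, 2.56 and 1.53, and rose by 2.60 on the log2 scale (SE 0.41, adjusted p = 0.00559). The 4 tumours were close to each other for Csf3r, unlike for the ligands.

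S100a8 was at 1.78, 17.0, 3.84 and 8.57 CPM in the BA tumours and 0.240, 0.708 and 0.463 in WT. S100a9 was at 2.49, 22.4, 8.36 and 10.1 CPM against 0.618, 0.599 and 0.602. Both were higher in every tumour, with tumour 2 highest and tumour 1 lowest, the order of Cxcl5. The log2 fold changes were 4.23 (SE 0.95, adjusted p = 0.0213) for S100a8 and 4.32 (SE 0.83, adjusted p = 0.0120) for S100a9.

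All 8 of the members tested were thus called higher in BA tumours, where 7.46% of all genes tested were called higher and 13.2% in either direction. All 8 were without overlap between tumour and WT libraries, as were 12.4% of genes tested in that direction. The median log2 fold change was 5.05 over the 8 members and 0.03 over all genes. Cxcl2, Cxcl3 and Cxcr2 held at most 3 reads in any WT library, so they passed the filter on low counts through the tumours. For these genes, being tested and being higher in tumours were thus not independent. With 3 WT libraries the calls depended on each of them: without WT proximal colon 1, 2 members were called (Cxcr2 and Csf3r), without WT proximal colon 2, 7 (all but Cxcl1, adjusted p = 0.0546), and without WT proximal colon 3, 4 (Cxcl2, Cxcl5, Cxcr2 and Csf3r). In these fits 696, 1829 and 1089 of all genes were called, against 2527 with every library. Leaving out tumour 2 left all 8 called, at log2 fold changes of 3.75 for Cxcl1, 5.32 for Cxcl5 and 3.46 for S100a9.

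**Figure D2:**
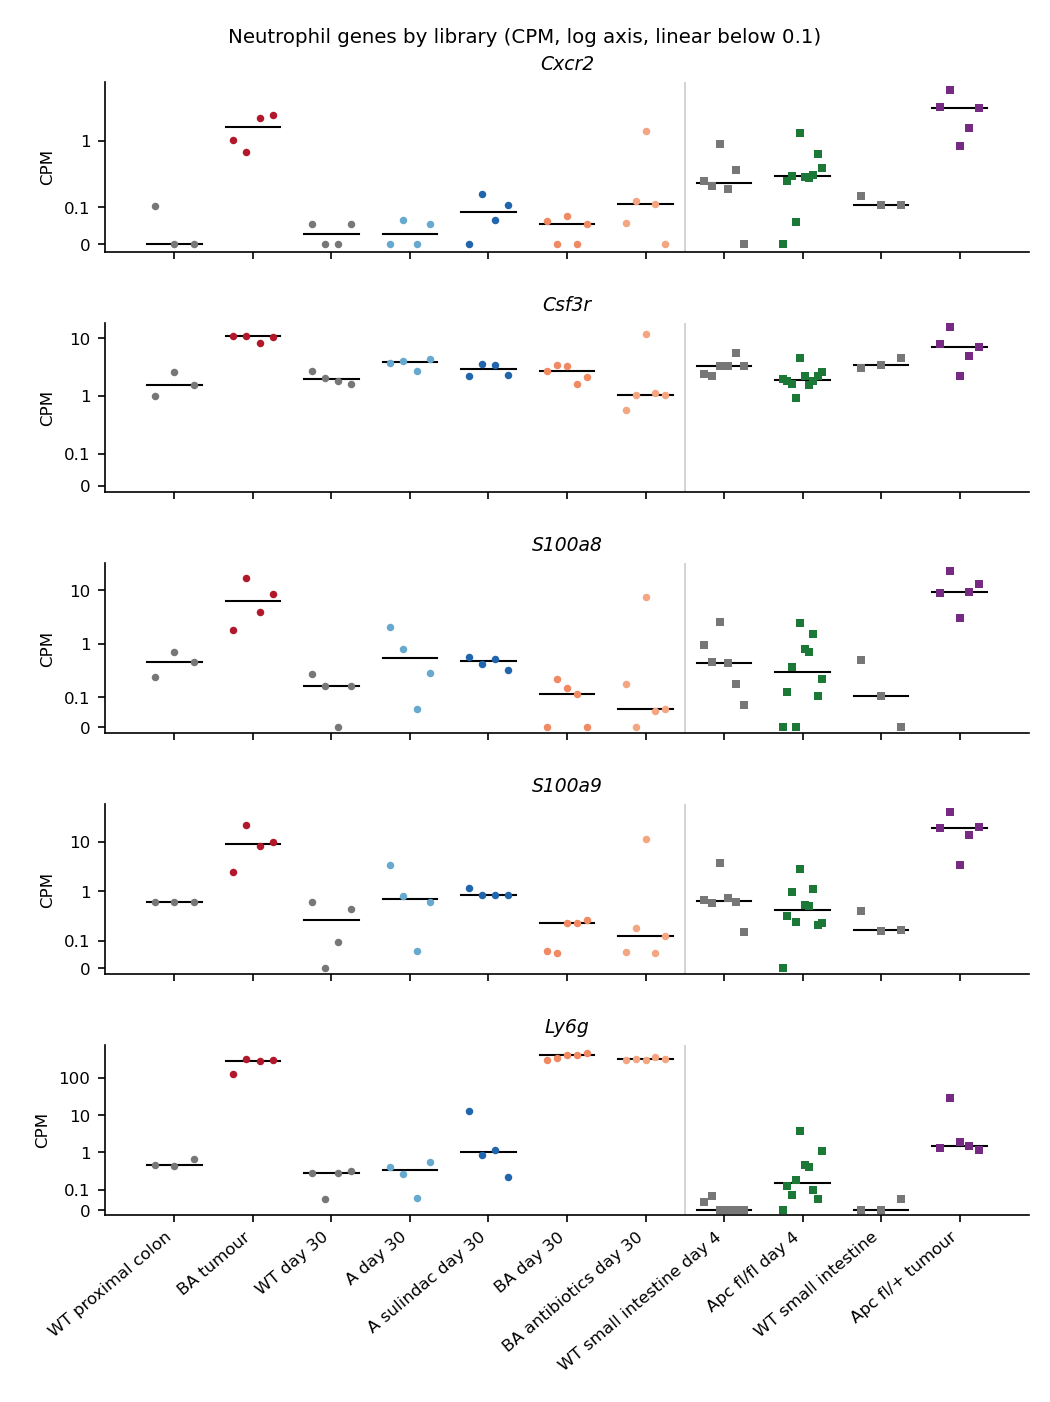
Expression of Cxcr2, Csf3r, S100a8, S100a9 and Ly6g in each of the 53 libraries, by group (CPM on an axis that is linear below 0.1 and logarithmic above it). Points are libraries (circles, proximal colon; squares, small intestine) and the black line is the group median. The first 4 genes are highest in both tumour groups, while Ly6g is between 126 and 465 CPM in all 14 BA libraries, at day 30 as well as in tumours.

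Other genes linked to neutrophils and chemokines were taken from lists drawn up for this work. Of the genes of mature neutrophils, 10 of 15 tested (18 listed) were called higher in BA tumours and 0 lower, with Trem1 at a log2 fold change of 5.01 and Clec4e at 4.29, and G0s2 at -0.26. Of the granule genes, 4 of 7 tested (12 listed) were called higher, namely Chil3 (7.25), Mmp8 (3.43), Lcn2 (3.01) and Lyz2 (1.78), of which Lyz2 and Chil3 are also made by macrophages and Lcn2 by epithelium. Granule genes that are transcribed in bone marrow precursors held few reads, and Mpo, Elane, Ctsg, Camp and Ngp did not pass the filter. The list of inducers of neutrophil chemokines also holds the receptor gene Il17ra, the enzyme gene Ptgs2 and the NF-kB regulator genes Nfkbia, Nfkbiz and Tnfaip3. Of this list, 9 of 11 tested (18 listed) were called higher. Among them were Osm (4.82), Il1a (3.80), Il1b (3.46) and Tnf (3.40), and Il17ra was at 0.63. The median log2 fold changes of these 3 lists were 2.74, 1.78 and 3.31, beside 0.03 over all genes tested, of which 7.46% were called higher. The list of mature neutrophil genes includes Ly6g, which did not follow the members in BA tissue at day 30, as described below.

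A further list held other genes of chemokines, cytokines, colony-stimulating factors and their receptors, not all of them of the Cxcr2 or Csf3r pathway. Of these, 3 of 9 tested were called higher, where 7.46% of all genes tested were called higher. They were Cxcr4 (3.44), Csf2rb (2.58) and the platelet chemokine gene Ppbp (2.54), and Pf4 was lower at -1.55. Of 21 other chemokines, which attract mainly monocytes and lymphocytes, 5 were called higher, with Cxcl14 at 3.37, Ccl3 at 2.57 and Ccl2 at 1.88. Of 10 other S100 genes tested, 3 were higher, led by S100a11 (3.21), and 2 were lower, with S100g at -6.56. Markers of other cells moved as well: summed over 10 monocyte and macrophage markers, BA tumours were at 524 to 1038 CPM and WT at 349 to 409.7, with 2 of 10 called higher, and over 7 fibroblast markers at 3772 to 5335 against 1785 to 2448, with 2 higher and 1 lower. T and B cell markers were called higher in 4 of 9, squamous epithelial markers in 3 of 4 and epithelial markers in 1 of 8. Their part in the change of the members was not tested.

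In Apc fl/+ tumours of the small intestine the same chemokines were high against their own WT. Cxcl1 was at 3.65, 11.5, 2.95, 11.8 and 18.3 CPM in the tumours and 0.499, 0.750 and 0.381 in WT small intestine. Cxcl2 was at 8.11, 17.4, 3.87, 10.3 and 11.1 CPM against 0.299, 0.321 and 0.490. Cxcl3 was at 2.26, 2.34, 1.06, 1.75 and 1.72 CPM against 0.0499, 0.0535 and 0, where the 2 reads in WT make a ratio of 51.4 per read counted (95% exact interval 14.0 to 427). No tumour overlapped WT for any of the 3, and tumour 3 was the lowest for each. Their log2 fold changes were 4.12 for Cxcl1 (SE 0.72, adjusted p = 0.0014), 4.73 for Cxcl2 (SE 0.50, adjusted p = 1.2e-04) and 5.47 for Cxcl3 (SE 0.55, adjusted p = 9.1e-05).

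Cxcl5 was at 25.1, 61.3, 7.97, 15.3 and 40.6 CPM in the Apc fl/+ tumours and 0.648, 1.18 and 0.979 in WT, and rose by 4.95 on the log2 scale (SE 0.71, adjusted p = 4.9e-04). Csf3 was at 0.432, 0.327, 0.368, 1.48 and 3.01 CPM against 0, 0.107 and 0.109. It was removed by the filter, and its log2 fold change without the filter was 3.99 (SE 1.07, adjusted p = 0.0124), and without each WT library in turn Csf3 passed the filter with adjusted p of 0.0649, 0.0473 and 0.0502. For both genes each tumour was above each WT library, and tumours 4 and 5 were the upper ones for Csf3.

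Cxcr2 was at 3.22, 5.83, 0.829, 1.57 and 3.04 CPM in the Apc fl/+ tumours against 0.150, 0.107 and 0.109, and rose by 4.45 on the log2 scale (SE 0.72, adjusted p = 9.2e-04). Csf3r was at 7.87, 15.6, 2.21, 4.84 and 6.95 CPM against 2.99, 3.37 and 4.51. The groups overlapped for Csf3r because tumour 3 was below all 3 WT libraries, and its log2 fold change of 1.00 was not called (SE 0.50, adjusted p = 0.109); without tumour 3 it was 1.22 and was called (adjusted p = 0.0197).

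S100a8 was at 8.88, 22.6, 2.99, 9.45 and 12.9 CPM in the Apc fl/+ tumours against 0.499, 0.107 and 0, and S100a9 at 19.3, 40.4, 3.45, 13.8 and 19.9 CPM against 0.399, 0.161 and 0.163. Tumour 2 was the highest and tumour 3 the lowest for both, and neither gene overlapped WT. The log2 fold changes were 5.69 for S100a8 (SE 0.91, adjusted p = 8.5e-04) and 6.23 for S100a9 (SE 0.86, adjusted p = 4.2e-04). In all, 7 of the 8 members tested were called higher, where 31.4% of all genes tested were called higher, 61.5% in either direction, and 31.5% did not overlap in that direction. The median log2 fold change was 4.84 over the 8 members and 0.03 over all genes, and the 7 members were called in each of the 8 fits that left out 1 library. Cxcl3 and Cxcr2 held at most 3 reads in any WT library and passed the filter on low counts through the tumours.

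Around them, 13 of 16 mature neutrophil genes tested were called higher in Apc fl/+ tumours, with Padi4 at 5.22, Cd177 at 4.47 and Clec4d at 3.76, and 5 of 6 granule genes, with Ltf at 6.29 and Lcn2 at 6.15. Genes of the inducer list were called higher in 8 of 13, among them Ptgs2 (3.43) and Il1b (2.93). Of all genes tested 31.4% were called higher and 61.5% in either direction. Markers of other blood cells moved too: 7 of 7 mast cell markers and 5 of 6 markers of red cells and platelets were higher, and Ppbp was at 4.77, while 7 of 9 T and B cell markers were lower. Squamous epithelial markers were called higher in 4 of 4 and fibroblast markers in 5 of 7. Their part in the change of the members was not tested.

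Whether the members changed by different amounts in the 2 tumour models, each against its own WT, was tested with an interaction term. By edgeR 0 of 9 members were called, and 1 at an unadjusted p under 0.05, where 39.7% of all genes were called. By DESeq2 it was 1, Csf3r (adjusted p = 0.0460). The difference (BA minus Apc fl/+) of Csf3r was 1.62 on the log2 scale (SE 0.66, adjusted p = 0.0617 in edgeR), and it was called without WT proximal colon 2 (1.98) or Apc fl/+ tumour 2 (1.89), while S100a9 was called without BA tumour 2 (-2.81, adjusted p = 0.0457). It was 2.29 for Cxcl2 (SE 1.39, adjusted p = 0.196), 1.40 for Cxcl5 (SE 1.36, adjusted p = 0.424), -1.91 for S100a9 (SE 1.20, adjusted p = 0.212) and -1.45 for S100a8 (SE 1.36, adjusted p = 0.407). The models also differ in tissue and in labelled background, which cannot be told apart from the tumour type.

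**Figure D3:**
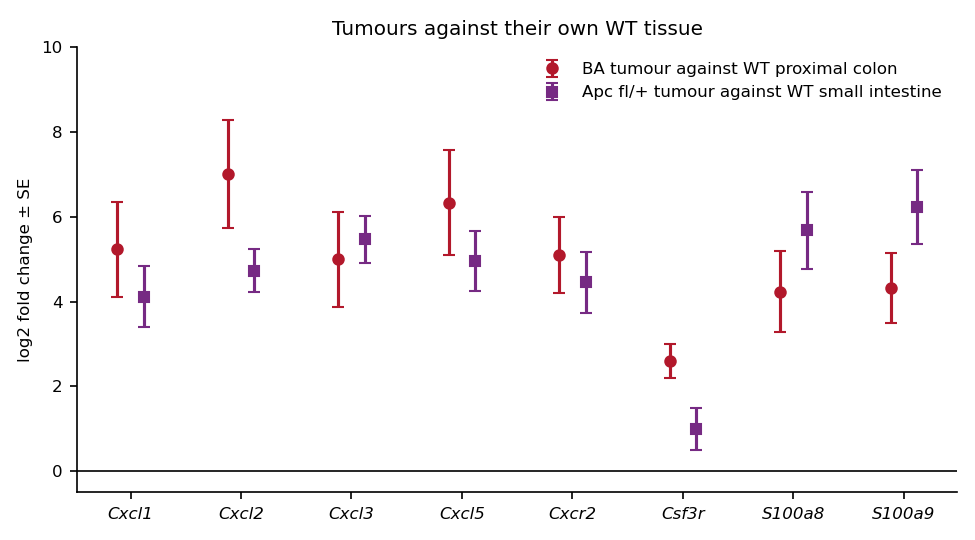
Log2 fold change against WT, with its standard error from edgeR, of the 8 members tested in BA tumours (red circles, against WT proximal colon) and Apc fl/+ tumours (purple squares, against WT small intestine). Cxcl2 was at 7.01 and 4.73, S100a9 at 4.32 and 6.23, and Csf3r is the only member whose value in Apc fl/+ tumours (1.00) was not called.

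The 4 chemokines kept similar proportions where they were high. Levels of different genes were compared per length, as reads divided by annotated exon length and library total (RPKM), in the 14 libraries with at least 100 reads over the 4 genes. Cxcl5 made up a median of 60.8% of their summed RPKM in BA tumours (47.3% to 68.7%, n = 4) and 58.2% in Apc fl/+ tumours (41.2% to 68.4%, n = 5). Cxcl1 made up 19.6% in both, Cxcl2 17.1% and 19.6%, and Cxcl3 3.03% and 2.50%. By this measure Cxcl5 had the largest share of the 4 in each of the 9 tumours, and Cxcl3 the smallest.

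The 5 libraries outside the tumours that reached 100 reads had a like order for Cxcl5. In BA antibiotics replicate 3 Cxcl5 made up 60.5% and Cxcl1 32.3%, but Cxcl2 6.35%. In 3 Apc fl/fl libraries Cxcl5 made up 58.2% to 63.5%, Cxcl1 a median of 25.7% and Cxcl2 8.62%, and in WT small intestine replicate 3 of day 4 they made up 64.6%, 20.2% and 13.3%. The share of Cxcl2 was 6.35% to 13.4% in these 5 libraries and 12.9% to 24.8% in the tumours, a difference that was not tested. Lengths are of all annotated exons joined, so a share rests on the annotation as well as on the reads. For Cxcl1 (1875 bases), Cxcl2 (2068) and Cxcl3 (3498) this length equals the whole gene from start to end. For Cxcl5 (1863) it is shorter than the gene. This can lower the shares of Cxcl1, Cxcl2 and Cxcl3 beside that of Cxcl5, and other lengths were not tried.

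**Figure D4:**
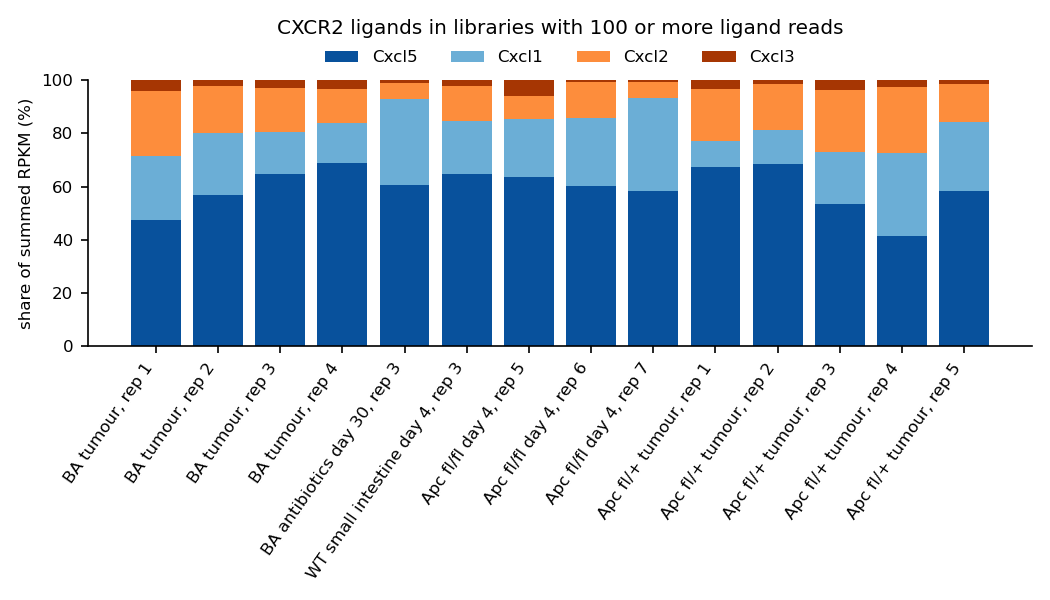
Share of Cxcl1, Cxcl2, Cxcl3 and Cxcl5 in their summed RPKM (percent), for the 14 libraries with at least 100 reads over the 4 genes; each bar is a library. Cxcl5 takes between 41.2% and 68.7% of every bar and Cxcl3 at most 6.02%.

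At day 30 post induction, before endpoint tumours, all members but Csf3r were near the floor in BA proximal colon. Cxcl1 was at 0.495, 0.952, 0.226, 0.173 and 0.323 CPM in BA and 0.380, 0.213, 0 and 0.108 in WT tissue. Cxcl5 was at 0.433, 0.112, 0.226, 0 and 0.323 CPM against 0.489, 0.266, 0.141 and 0.323. S100a9 was at 0.0619, 0.0560, 0.226, 0.231 and 0.269 CPM against 0.597, 0, 0.0941 and 0.430. The groups overlapped for all 3 genes. Cxcl2 was at most 0.215 CPM in BA and 0.323 in WT, S100a8 at most 0.224 and 0.272, Cxcr2 at most 0.0754 and 0.0543, and Cxcl3 held 1 read in each group. Csf3 was at 0 in 3 of 5 BA and 4 of 4 WT libraries.

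Only Csf3r passed the filter on low counts in BA tissue at day 30, and it was at 2.66, 3.36, 3.24, 1.61 and 2.15 CPM against 2.66, 2.07, 1.84 and 1.61. Its log2 fold change of 0.50 (SE 0.24, adjusted p = 0.0985) was not called by edgeR, nor at an unadjusted p under 0.05, where 55.1% of all genes tested were called. Leaving out BA replicate 4 made it 0.64 with an adjusted p of 0.0270. Without the filter 0 of the 9 were called by edgeR, and DESeq2 called 0 of the 6 to which it gave an adjusted p. Among them Cxcl1 was at 1.5 without the filter (SE 0.63, adjusted p = 0.0836) and 1.53 in DESeq2 (adjusted p = 0.113).

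Ly6g, which encodes a surface protein used to mark mouse neutrophils, did not follow the members. It was at 297 to 465 CPM in the 5 BA libraries at day 30 and 0.0531 to 0.323 in WT, and rose by 10.77 on the log2 scale (adjusted p = 6.3e-10), where S100a9 was at most 0.269 CPM in the same 5 BA libraries. In the BA tumours Ly6g was at 126, 318, 284 and 294 CPM, and S100a9 was at 2.49 to 22.4. In Apc fl/+ tumours it was at 1.34, 28.5, 1.89, 1.52 and 1.15 CPM, with 1 read in all of WT, while S100a9 was at 3.45 to 40.4. High Ly6g was thus found in all 14 BA libraries, whether the other neutrophil genes were high or not. Of its 36-base words 6.51% occur in other genes, most in Ly6i.

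Of the other mature neutrophil genes in BA tissue at day 30, 8 were tested, with Ly6g higher and 2 lower, and of the granule genes 3 were tested, with Mmp9 lower at -1.92. Genes of the inducer list were split, with 4 higher (Il1b at 1.69) and 1 lower (Ptgs2 at -0.86) of 8 tested. Other chemokines were called higher in 3 of 19, with Cxcl11 at 2.06, and lower in 6, with Ccl20 at -3.60. Of all genes tested in this comparison 55.1% were called in either direction, so counts near that share do not set a list apart. Epithelial markers were called higher in 8 of 8 and fibroblast markers lower in 6 of 7, and their part in these results was not tested.

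The change of the members was larger in BA tumours than in BA tissue at day 30, each against its own WT. In the interaction test 5 of 8 members were called higher, where 9.87% of all genes were called higher and 16.3% in either direction. Cxcl2 was near the floor in the other groups and passed the filter on low counts through the tumours. The difference in log2 fold change was 7.37 for Cxcl2 (SE 1.70, adjusted p = 0.00794), 6.62 for Cxcl5 (SE 1.47, adjusted p = 0.00628), 4.83 for S100a9 (SE 1.21, adjusted p = 0.0129), 4.61 for S100a8 (SE 1.48, adjusted p = 0.0430) and 2.09 for Csf3r (SE 0.45, adjusted p = 0.00495). It was 3.70 for Cxcl1 (adjusted p = 0.0939), 4.54 for Cxcr2 (adjusted p = 0.106) and 4.93 for Cxcl3 (adjusted p = 0.314), which were not called. S100a8 was called in 6 and S100a9 in 15 of the 16 fits that left out 1 library, and without WT day 30 replicate 1 both were lost (adjusted p = 0.132 and 0.0565), which left 3 members called. Cxcl1 was called without BA tumour 1 (adjusted p = 0.0477), Cxcr2 without WT proximal colon 1 (adjusted p = 0.0461) and both by DESeq2 (adjusted p = 0.0153 and 0.0474).

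In antibiotic-treated BA tissue the members were low in 4 of 5 libraries and high in 1. Cxcl1 was at 0.290, 1.65, 14.6, 0.111 and 0.552 CPM, Cxcl5 at 0.0580, 1.10, 27.2, 0.111 and 0.491, and S100a9 at 0.0580, 0.184, 11.7, 0.0553 and 0.123. Csf3r was at 0.580, 1.04, 11.6, 1.11 and 1.04 CPM. Replicate 3 was the highest of its group for all 9 members, at values in the range of the BA tumours for Cxcl1, Cxcl2, Cxcl3, Cxcl5, Csf3, Cxcr2, S100a8 and S100a9. Its 7 fibroblast markers summed to 7864 CPM against 1014 to 1568 in the other 4, its macrophage markers to 527 against 204 to 401, and its granule genes to 293 against 55.1 to 85.8. Their part in this library's values was not tested.

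Against WT at day 30, Csf3r, the only member past the filter, had a log2 fold change of 0.68 in antibiotic-treated BA tissue (SE 0.81, adjusted p = 0.535). By edgeR 0 of 1 was called, and 0 at an unadjusted p under 0.05, where 39.6% of all genes were called. Without replicate 3 it was lower, at -1.00, and was called (adjusted p = 0.00827). DESeq2 called Cxcl1 at 4.38 (adjusted p = 0.0113), and edgeR without the filter called Cxcl1 and Cxcl5 at 4.31 and 4.25 (adjusted p = 0.0276 and 0.0499), values that include replicate 3. Against untreated BA tissue Csf3r differed by 0.18 (SE 0.73, adjusted p = 0.890), with 0 of 1 called by edgeR, and 0 at an unadjusted p under 0.05, where 13% of all genes were called. DESeq2 called 0 members and gave Csf3r no adjusted p. Without replicate 3 the difference was -1.50 and was called (adjusted p = 0.00483). The 2 comparisons of antibiotic-treated BA tissue share its libraries, and all comparisons with WT at day 30 share those 4 WT libraries.

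In A mice, which lose Alk5 without the Braf mutation, Cxcl5 was at 1.62, 0.732, 0.676 and 1.06 CPM, above the 4 WT libraries at 0.489, 0.266, 0.141 and 0.323. Its log2 fold change of 1.71 (SE 0.43) had an unadjusted p of 0.0025 in edgeR and an adjusted p of 0.355. Cxcl5 held at most 9 reads in any WT library and passed the filter on low counts through the A libraries. Csf3r was at 3.64, 4.06, 2.64 and 4.35 CPM against 2.66, 2.07, 1.84 and 1.61, at 0.81 (SE 0.23, adjusted p = 0.406). S100a9 was at 3.44, 0.798, 0.0614 and 0.613 CPM against 0.597, 0, 0.0941 and 0.430, at 2.1 (SE 1.00, adjusted p = 0.516), with replicate 1 well above the rest. By edgeR 0 of 3 members tested were called, and 2 at an unadjusted p under 0.05, where 0.141% of all genes were called. Of these 3, Cxcl5 did not overlap WT, which held for 4.08% of genes tested in that direction. Cxcl1, removed by the filter, did not overlap either, at 0.877, 0.466, 0.430 and 0.446 CPM against 0.380, 0.213, 0 and 0.108. DESeq2 called 0 members.

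In A mice given sulindac Cxcl5 was at 4.10, 0.578, 0.193 and 2.68 CPM, S100a9 at 1.19, 0.841, 0.838 and 0.858, and Csf3r at 2.18, 3.62, 3.41 and 2.31. Against WT at day 30 the log2 fold change of S100a9 was 1.75 (SE 0.62, adjusted p = 0.487) with no overlap, as for 1.51% of genes tested in that direction, and that of Csf3r was 0.49 (adjusted p = 0.565). By edgeR 0 of 2 were called, and 1 at an unadjusted p under 0.05, where 0.0507% of all genes were called. Cxcl5, removed by the filter, was at 2.69 in DESeq2 (adjusted p = 0.0833) and 2.66 in edgeR without the filter (adjusted p = 0.241), and DESeq2 called 0 members. S100a8, also removed, was at 0.322 to 0.571 CPM with sulindac and at most 0.272 in WT. Against untreated A tissue Cxcl5 differed by 0.99 (SE 0.74), Csf3r by -0.31 (SE 0.24) and S100a9 by -0.34 (SE 0.75), each with an adjusted p of 1.00. By edgeR 0 of 3 were called, 0 at an unadjusted p under 0.05, and 0 by DESeq2, where 0% of all genes were called.

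BA tissue at day 30 was lower in Cxcl5 than A tissue of that day. All 5 BA libraries (0 to 0.433 CPM) were below all 4 A libraries (0.676 to 1.62), and the log2 fold change of -1.97 (SE 0.55, adjusted p = 0.0127) was called, as 1 of the 2 members tested, where 23.6% of all genes were called lower, 45.3% in either direction, and 29.2% did not overlap in that direction. Cxcl5 held at most 7 reads in any BA library and passed the filter on low counts through the A libraries. Being tested and being lower in BA were thus not independent. In a fit over all 5 groups of day 30 the log2 fold change of Cxcl5 was -2.01 and was not called (adjusted p = 0.260). Csf3r was at -0.27 (adjusted p = 0.386). Without the filter S100a8 and S100a9 were called lower too, at -2.69 (adjusted p = 0.0175) and -2.55 (adjusted p = 0.0117), and DESeq2 gave -2.82 (adjusted p = 0.0200) and -2.63 (adjusted p = 0.0102). Without A replicate 3 S100a9 passed the filter and was called at -2.96 (adjusted p = 0.00547).

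In Apc fl/fl small intestine at day 4 Cxcl1, Cxcl2 and Cxcl5 were not called against WT. Over the 10 Apc fl/fl libraries Cxcl1 had a lowest, median and highest value of 0, 0.633 and 4.63 CPM, and over the 6 WT libraries of 0.373, 0.557 and 1.02. Cxcl5 was at 0, 2.00 and 13.3 CPM against 0.373, 1.29 and 3.24, and Cxcl2 at 0, 0.196 and 2.01 against 0.347, 0.558 and 0.958. The highest value of each came from Apc fl/fl replicate 5, which was the highest of its group for all 9 members, and the value of 0 from replicate 1, the shallow library. The log2 fold changes were 0.73 for Cxcl1 (SE 0.60, adjusted p = 0.318), 0.69 for Cxcl5 (SE 0.55, adjusted p = 0.303) and -0.27 for Cxcl2 (adjusted p = 0.696). Cxcl3 and Csf3 were at or under 0.224 and 0.105 CPM outside replicate 5, at 2.38 and 0.518 in it, and were not tested.

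Csf3r was lower in Apc fl/fl tissue, at 0.908, 1.87 and 4.60 CPM (lowest, median, highest) against 2.22, 3.31 and 5.45 in WT. The groups overlapped through Apc fl/fl replicates 5 and 10, and the log2 fold change of -0.88 (SE 0.27, adjusted p = 0.0106) was called in each of 16 fits that left out 1 library. It was the only one of 6 members tested that was called, where 26.7% of all genes were called lower and 54.2% in either direction. S100a8 was at -0.46 (adjusted p = 0.624) and S100a9 at -0.77 (adjusted p = 0.322). Both turned on single libraries: without WT replicate 3 they were at 0.40 and 0.22, and without Apc fl/fl replicate 5 S100a9 was at -1.45 and was called (adjusted p = 0.0433). Apc fl/fl replicate 5 also had the highest sums of its group for macrophage markers (523 CPM, the others 230.2 to 349.5), granule genes (373 against 48.4 to 164) and fibroblast markers (2683 against 360.1 to 1324), whose part in its values was not tested.

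Ordered by group median, Cxcl5 ran from Apc fl/+ tumours (25.1 CPM) and BA tumours (18.6) through Apc fl/fl (2.00), A with sulindac (1.63), WT small intestine of day 4 (1.29), WT small intestine (0.979), A (0.896) and BA with antibiotics (0.491) to WT proximal colon (0.327), WT at day 30 (0.294) and BA at day 30 (0.226). Every pair of neighbours in this order overlapped in its libraries. S100a9 ran from Apc fl/+ tumours (19.3 CPM) and BA tumours (9.23) to A with sulindac (0.849), A (0.706), WT small intestine of day 4 (0.628), WT proximal colon (0.602), Apc fl/fl (0.415), WT at day 30 (0.262), BA at day 30 (0.226), WT small intestine (0.163) and BA with antibiotics (0.123). Here the BA tumours (at least 2.49 CPM) did not overlap the next group (at most 1.19), and all other neighbours overlapped. For each of the 9 members the 2 tumour groups had the highest medians.

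Whether the ligands and the neutrophil genes varied together within groups was examined on log2 CPM (with 2 reads added) after subtracting each group's mean. Genes with at least 1 read in at least 50% of a tissue's libraries were used, which left Cxcl3 out of the colon. All 16 pairs of a ligand with a neutrophil gene over the 29 proximal colon libraries had a positive Pearson r (0.052 to 0.741, median 0.576), as had all 20 pairs over the 24 small intestine libraries (0.316 to 0.788, median 0.549). By a two-sided permutation test within groups, adjusted over the 36 pairs by the Benjamini-Hochberg method, 6 colon pairs and 14 small intestine pairs were called by r, and 3 and 8 by Spearman's rho. The share called among pairs of other genes was not computed, so these counts do not set the ligand and neutrophil genes apart from other genes.

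Cxcl5 and S100a9 had the highest r in the colon, 0.741 (permutation p = 2.4e-04, adjusted p = 0.00216; rho 0.572, adjusted p = 0.0140). Without BA antibiotics replicates 1 and 3, the libraries farthest from the median of Cxcl5, r was 0.497 (adjusted p = 0.0150). In the small intestine r was 0.762 for the same pair (permutation p = 1.4e-04, adjusted p = 0.00168; rho 0.583, adjusted p = 0.0270), and 0.596 without Apc fl/fl replicates 1 and 5 (adjusted p = 0.0910). Cxcl5 with Cxcr2 had the highest r in the small intestine, 0.788 (permutation p = 8.0e-05, adjusted p = 0.00144), but in the colon r was 0.469 (adjusted p = 0.180) and -0.04 without the 2 farthest libraries. Cxcl1 with S100a8 was at 0.719 in the colon (adjusted p = 0.0169) and 0.764 in the small intestine (adjusted p = 0.00108), and at 0.415 and 0.663 without the 2 farthest.

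Of the 20 pairs called by r, 3 stayed called without the 2 farthest libraries of their ligand (Cxcl5 with S100a9 in the colon, Cxcl1 with S100a8 and Cxcl2 with Csf3r in the small intestine) and the other 17 did not, at r between 0.177 and 0.658 over 2 libraries fewer. Within single groups of at least 6 libraries, 2 of 20 pairs were called in Apc fl/fl (Cxcl1 with S100a8, r = 0.927, and with S100a9, r = 0.855, adjusted p = 0.0056 and 0.0402 by permutation) and 0 of 20 in WT of day 4 by exact permutation. Other groups held too few libraries. No sequencing batch is labelled, so no value within a batch can be given.

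**Figure D5:**
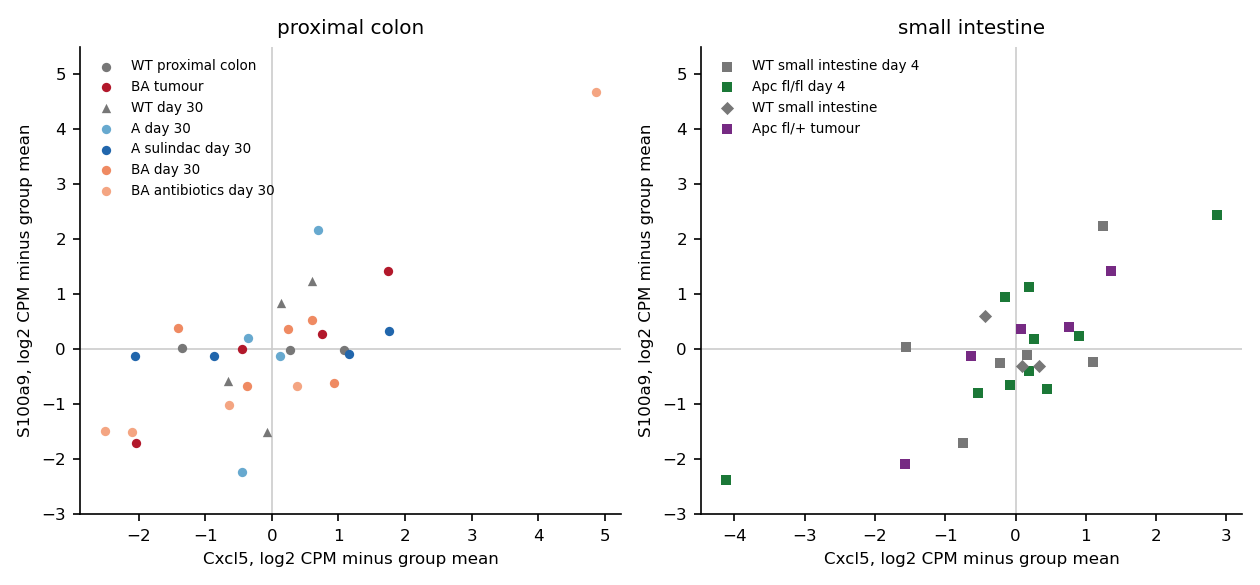
Cxcl5 against S100a9 in each library, as log2 CPM with 2 reads added minus the mean of the library's group, for 29 proximal colon and 24 small intestine libraries. Pearson r is 0.741 and 0.762; BA antibiotics replicate 3 is the point at the upper right of the colon panel and Apc fl/fl replicate 5 that of the small intestine panel, whose lower left point is Apc fl/fl replicate 1, the shallow library.

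The library that held the most of one member tended to hold the most of the others. BA antibiotics replicate 3 and Apc fl/fl replicate 5 were each the highest of their group for 9 of 9 members, and BA tumour 2, Apc fl/+ tumour 2 and WT small intestine replicate 3 of day 4 for 7 of 9. Over all 53 group-centred libraries and 20545 genes, those most like S100a9 by Pearson r were Trem2 (0.760), Pygl (0.758), Clec4d (0.755), Serpina3c (0.743) and C1qb (0.743), and those most like Cxcl1 were Cebpd (0.790), Ccl2 (0.773), Cxcl10 (0.772), Clec4e (0.765) and Olr1 (0.762). Trem2 and C1qb are known as macrophage genes and Clec4d and Clec4e as genes of myeloid cells. These are descriptions over libraries that share groups and depths, with no test.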

How the data were processed

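RNA was extracted from whole intestinal tissue and paired reads of 36 bases were sequenced. Per the study's methods and the labels, the authors checked reads with FastQC 0.11.8, trimmed them with Trim Galore 0.6.4, aligned them to GRCm38 with HISAT2 2.1.0 and assigned them to genes with featureCounts 1.6.4. The deposited values are raw counts per Ensembl gene, not normalised. The strand and multiple-mapping settings are not given in the sources used here. Symbols were joined from GENCODE for 55154 of 55421 genes, and 267 had none.

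Groups were taken from the labels. The labels number the replicates without naming animals, and the study's reporting summary describes replicates as separate animals. Genes passing filterByExpr were tested in edgeR 4.0.16 (R 4.3.3; TMM scaling, quasi-likelihood F test, 2 groups per fit), with p-values adjusted over all genes tested by the Benjamini-Hochberg method and called under 0.05. Effects of different models were compared with an interaction term over 4 groups. Alternatives were DESeq2 1.42.0, RLE scaling, no filter on low counts, all groups of day 30 in 1 fit, the replicate number as a block, and leaving out each library. Agreement between ligands and neutrophil genes was tested by 100000 permutations within groups, or exactly for n = 6 (SciPy 1.17.1, NumPy 2.4.6), on log2 CPM computed here from the deposited counts. The fits were run on simulated counts in which 200 genes differed by 2 on the log2 scale, of which 57.5% were recovered in the comparison of BA tumours with WT proximal colon (19188 genes) and 76% in that of Apc fl/+ tumours (20567 genes), with 0 of the wrong sign. Of the genes called in these simulations, 7.26% and 2.56% were false.

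Library totals over genes ran from 516985 to 32824795 reads (median 18356939). No 2 libraries held identical values. The 9 members and the other gene lists (175 genes, of which 3 have no row) were chosen with earlier results of these data known. Not all 9 members were named in every comparison, and members removed by the filter on low counts were often left out. Of the other lists, the members with the extreme log2 fold changes could be named and up to 4 more per list, and the 5 genes most like S100a9 and Cxcl1 by group-centred correlation were named. Gene positions are from GENCODE M21 and promoters from RefSeq (GRCm38.p6).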

Additional observations from a re-analysis of the deposited data

Results flagged for a closer look

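Dixon's test at the 95% level was applied to 70 sets of values, each of a member in a group of 4 to 10 libraries. Not every member was used in every group. A chance rate of about 1 in 20 holds for independent values from a normal distribution. These values are often low counts and come from shared libraries, so the number marked cannot be set against that rate. The test marked 26 of the 70 sets. Most came from a pair of libraries. BA antibiotics replicate 3 was the outlying library for all 9 members, with Cxcl1 at 14.6 CPM, Cxcl2 at 3.17, Cxcl3 at 0.723, Cxcl5 at 27.2, Csf3 at 0.723, Cxcr2 at 1.39, Csf3r at 11.6, S100a8 at 7.50 and S100a9 at 11.7. Apc fl/fl replicate 5 was the outlying library for 8 of 9, with Cxcl1 at 4.63 CPM, Cxcl2 at 2.01, Cxcl3 at 2.38, Cxcl5 at 13.3, Csf3 at 0.518, Cxcr2 at 1.31, Csf3r at 4.60 and S100a9 at 2.86.

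In WT small intestine of day 4, replicate 3 stood above its group for Csf3 (0.231 CPM), S100a8 (2.59) and S100a9 (3.80), and replicate 5 for Csf3r (5.45). BA tumour 2 stood above the other tumours for Csf3 at 19.4 CPM, and BA tumour 3 below them for Csf3r at 8.19. A replicate 1 stood above its group for Cxcl1 at 0.877 CPM, and A with sulindac replicate 1 for Cxcl3 (0.260, from 5 reads) and S100a9 (1.19).

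The effect in BA tumours differed from the effect in BA tissue at day 30, by the interaction term in edgeR, for Cxcl2 (7.37 on the log2 scale), Cxcl5 (6.62), S100a9 (4.83), S100a8 (4.61) and Csf3r (2.09). The 2 effects are set against different WT groups.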

How the results depend on the processing

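RLE scaling in place of TMM left every member's direction and call as reported, and moved the median of all genes by -0.0302 to 0.0228 on the log2 scale. Of all values recomputed for single members and for pairs of a ligand with a neutrophil gene, 798 kept direction and call, 48 lost the call, 12 gained it and 14 reversed. The cause of these changes was not tested, and leaving out a library also reduces the number of samples.

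The number of members called changed with the tool or fit in several comparisons. Csf3, which the filter removed, was called in BA tumours without the filter (edgeR, adjusted p = 4.5e-04). In Apc fl/+ tumours it was called by DESeq2 (adjusted p = 8.8e-04) and without the filter (edgeR, adjusted p = 0.0124). For the difference between the BA tumour and BA day 30 effects, DESeq2 also called Cxcl1 and Cxcr2. BA with antibiotics against WT at day 30 had 1 by DESeq2, 2 without the filter on low counts and 3 with all groups of day 30 in 1 fit, against 0. BA with antibiotics against BA had 1 in that joint fit. BA against A at day 30 had 3 by DESeq2, 3 without the filter and 0 in the joint fit, against 1. The difference between the BA and Apc fl/+ tumour effects had 1 by DESeq2. Agreement of ligands with neutrophil genes had 20 of 36 pairs, 3 without the 2 farthest libraries and 2 within single groups, and the r of Cxcl5 and Csf3 with Cxcr2 in the colon turned to -0.044 and -0.061 without the 2 farthest.

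Replicate numbers did not pair the libraries: the correlation of same-numbered libraries ran from -0.44 to 0.23, and in no comparison were all pairs above 0.1. With the replicate number as a block, the difference between the BA tumour and BA day 30 effects had 3 members called, against 5, Csf3r turned to -0.084 in BA with antibiotics against WT and to -0.70 against BA, and S100a9 turned to 0.21 in A with sulindac against A.

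Leaving out 1 library at a time, the number called ran from 2 to 8 in BA tumours, 7 to 8 in Apc fl/+ tumours, 1 to 2 in Apc fl/fl, 0 to 1 in BA at day 30, 0 to 1 in BA with antibiotics against WT and against BA, 1 to 2 in BA against A, 0 to 1 for the difference between tumour effects and 3 to 6 for that between BA tumours and BA at day 30; it stayed 0 in A and A with sulindac. The log2 fold change of Csf3r ran from -1.00 to 0.89 in BA with antibiotics against WT and from -1.50 to 0.44 against BA. In Apc fl/fl S100a8 ran from -0.67 to 0.40 and S100a9 from -1.45 to 0.22, and in A with sulindac against A S100a9 ran from -0.75 to 1.01. For the difference between tumour effects Cxcl1 ran from -0.41 to 1.42, Cxcl3 from -1.26 to 0.86 (0.04 without WT small intestine replicate 3) and Csf3 from -1.82 to 3.13.

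At day 30 all members but Csf3r held fewer than 10 reads in most libraries, which limits the precision there. In the shallow Apc fl/fl replicate 1 a count of 3 is 5.80 CPM.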
